A study of Mus musculus with 18 samples.

Results

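Kmt2a, Kmt2d, Men1, Ash2l, Wdr5, Kat6a, Ep300 and Ezh2 are 8 genes of histone methyltransferases, their partner subunits and histone acetyltransferases. They were chosen by name, as chromatin regulators that have been linked to mutant p53, and not by a threshold on expression. Earlier results of these data were known when they were chosen. All 8 were found among the 57126 genes of the table, and all 8 passed the filter on low counts. They were followed in bulk RNA sequencing of 18 mouse mammary tumors. In all 3 groups adenoviral Cre, injected into the mammary gland, excised a wild-type Trp53 cDNA from the endogenous locus of mammary ductal epithelial cells, so that cells of the tumor that Cre did not reach were not recombined. The MaP R172H/- tumors (n = 7, from 7 mice) then carried p53 R172H over a null allele, the MaP R245W/- tumors (n = 5, from 5 mice) carried p53 R245W over a null allele, and the MaP -/- tumors (n = 6, from 4 mice) had lost both Trp53 alleles. A Rosa26 LSL-TdTomato reporter allele was present in 3 MaP R172H/- and 3 MaP R245W/- tumors and in none of the MaP -/- tumors. Age and strain of each mouse are not given in the labels used here. The paper describes the mice of all groups as female F1 hybrids of BALB/c and C57BL6/J, and gives their age at injection and the tumor latency.

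Proteins of the MLL and SET1 family methylate lysine 4 of histone H3, a mark of active promoters and enhancers, and work only inside a complex (COMPASS) built on shared subunits. Acetyltransferases such as MOZ and p300 add acetyl groups to histones at the same kinds of sites, whereas Polycomb repressive complex 2 methylates lysine 27 of histone H3 at silenced genes. Some p53 missense mutants have been reported to bind the promoters of MLL and MOZ genes together with ETS factors and to raise their expression, and p53 itself uses p300 as a coactivator.

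Levels are given as CPM (counts per 1000000 counts of the library) after TMM scaling, and each comparison is a log2 fold change from edgeR's quasi-likelihood test fitted to all genes that passed the filter, called at a Benjamini-Hochberg adjusted p below 0.05. Total counts lay between 23113578 and 27930163 in the MaP R172H/- group, between 30030630 and 37365062 in the MaP R245W/- group and between 24736337 and 32085794 in the MaP -/- group. Every MaP R172H/- library was read on a HiSeq instrument and every other library on a NovaSeq instrument, so genotype and instrument cannot be told apart wherever MaP R172H/- tumors are compared. The paper types the MaP R172H/- tumors as luminal B or HER2-enriched, all nonmetaplastic, and the tumors of both other groups as triple-negative. Tumor subtype therefore cannot be told apart from genotype in those comparisons. In bulk tissue, fewer cells of a type and less RNA per cell cannot be told apart either. The cell content of the tumors varied: the summed level of 11 epithelial markers ran from 152 CPM to 11900 CPM over the 18 tumors, and each of these markers was detected in every group. It was 329.1 to 11900 CPM in MaP R172H/-, 479.3 to 6663 CPM in MaP R245W/- and 152.3 to 3316 CPM in MaP -/- tumors. Against MaP -/- tumors all 11 were above 0 in MaP R172H/- (median 1.3) and in MaP R245W/- tumors (median 0.936), none called by edgeR. Between the mutants 8 were above 0 and 3 below. Against MaP -/- tumors, all 12 immune markers were below 0 in MaP R172H/- tumors, 4 of them called lower, and their summed level was at most 476 CPM against at least 484.5 CPM. Of 10 skeletal muscle markers, 7 were tested in each comparison, and all 7 were called lower in MaP R172H/- than in MaP R245W/- tumors. Summed muscle marker level was 3.21 to 18.65 CPM in MaP R172H/- tumors, 4.39 to 1160 CPM in MaP R245W/- tumors and 3.59 to 23.1 CPM in MaP -/- tumors. All 10 mesenchymal and fibroblast markers were below 0 between the mutants (median -1.29, Lum called lower). In MaP R172H/- against MaP -/- tumors 4 of them were above 0 and 6 below (median -0.953). Of these, Pdgfra, Lum and Fap were called lower, as was the endothelial marker Pecam1. Summed level of the mesenchymal and fibroblast markers was 2656 to 7536 CPM in MaP R172H/- tumors, 3209 to 31620 CPM in MaP R245W/- tumors and 4008 to 8802 CPM in MaP -/- tumors. All 7 basal epithelial markers were above 0 in both comparisons of MaP R172H/- tumors, with medians of 2.48 against MaP -/- and 2.13 against MaP R245W/-, and none was called by edgeR. Their summed level was 245.2 to 3460 CPM in MaP R172H/- tumors, 139.0 to 801.1 CPM in MaP R245W/- tumors and 45.84 to 721.6 CPM in MaP -/- tumors. Of 7 adipocyte markers, all 7 were below 0 against MaP -/- tumors in both mutants (medians -3.00 in MaP R172H/- and -6.43 in MaP R245W/- tumors), none called by edgeR. Summed adipocyte marker level was 10.44 to 491.7 CPM in MaP R172H/- tumors, 12.27 to 56.93 CPM in MaP R245W/- tumors and 29.17 to 4213 CPM in MaP -/- tumors. By DESeq2's Wald test, MaP R172H/- against MaP -/- tumors had Cldn3, Krt17 and Oxtr called higher, and Fabp4 and 5 mesenchymal and fibroblast markers lower. In MaP R245W/- against MaP -/- tumors it called 8 muscle markers higher and Fabp4 and Lep lower. Between the mutants it called Krt5, Krt17, Oxtr and Cfd higher in MaP R172H/- tumors. There 9 muscle, 4 mesenchymal and fibroblast and 2 immune markers were lower. DESeq2 called 3425, 427 and 3690 genes in these comparisons. The part of these cell content differences in the results below was not tested.

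Trp53 itself was read first, as the check of the genotype. The MaP R172H/- tumors held 10.8 to 50.3 CPM with a median of 45.8, and 6 of the 7 lay between 41.4 and 50.3. The MaP R245W/- tumors held 11.4, 27.1, 9.09, 27.6 and 59.0 CPM, and the MaP -/- tumors 9.43 to 21.6 CPM with a median of 12.2. One MaP R172H/- tumor (replicate 7, tumor YZ11, 10.8 CPM) and 2 MaP R245W/- tumors (replicate 1, JM1233, and replicate 3, RM0014) therefore lay at or below the MaP -/- median, and each mutant group overlapped with the MaP -/- group. Against MaP -/- tumors, the fitted change was 1.58 ± 0.311 (log2, SE) in MaP R172H/- tumors, adjusted p = 0.00794, and 0.95 ± 0.438 in MaP R245W/- tumors, adjusted p = 0.426. The latter value was 0.45 without MaP R245W/- replicate 5, the tumor with the most Trp53, 1.18 without replicate 3, and 1.47 without the mutant tumors of low Trp53, and it was called in none of these fits (adjusted p = 0.723, 0.528 and 0.35). The tumors of low Trp53 were chosen by these same values after they were seen, so the rise to 1.47 follows from that choice. Counts per gene do not separate the mutant, null and host alleles.

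Upstream sequence is shown for the 4 genes on which the comparisons below turn. Men1 was the member called in MaP R172H/- tumors, Kmt2d and Ep300 were the members called between the mutants, and Kmt2a was the member whose level ran closest with that of Kmt2d. The windows are the 250 bases before the start of the canonical GENCODE M39 transcript in GRCm39, written 5′ to 3′ on the gene's strand. Bases inside the annotated gene were left out of the sequences and positions shown, but were kept for the pattern matches and GC content. Capitals mark the SP1 box GGGCGG or its complement CCGCCC. Men1 lies at chr19:6384819-6385008 on the plus strand, Kmt2d at chr15:98769086-98769335 on the minus strand, Ep300 at chr15:81469290-81469539 on the plus strand and Kmt2a at chr9:44792622-44792871 on the minus strand, where an exon of the lncRNA gene Gm57024 covers part of the window.
Men1: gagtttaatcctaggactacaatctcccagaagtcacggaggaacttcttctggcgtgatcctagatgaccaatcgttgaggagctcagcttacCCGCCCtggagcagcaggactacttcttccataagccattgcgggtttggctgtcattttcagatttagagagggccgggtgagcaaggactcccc
Kmt2d: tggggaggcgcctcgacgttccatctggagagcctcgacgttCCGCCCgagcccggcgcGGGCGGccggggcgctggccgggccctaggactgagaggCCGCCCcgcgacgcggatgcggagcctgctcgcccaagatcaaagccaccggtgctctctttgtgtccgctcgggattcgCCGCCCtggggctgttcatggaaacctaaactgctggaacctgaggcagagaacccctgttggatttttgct
Ep300: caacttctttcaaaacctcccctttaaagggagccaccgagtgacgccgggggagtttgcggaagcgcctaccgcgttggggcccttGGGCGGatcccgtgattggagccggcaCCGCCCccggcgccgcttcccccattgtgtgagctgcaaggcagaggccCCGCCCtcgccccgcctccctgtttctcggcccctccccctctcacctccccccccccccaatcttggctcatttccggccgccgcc
Kmt2a: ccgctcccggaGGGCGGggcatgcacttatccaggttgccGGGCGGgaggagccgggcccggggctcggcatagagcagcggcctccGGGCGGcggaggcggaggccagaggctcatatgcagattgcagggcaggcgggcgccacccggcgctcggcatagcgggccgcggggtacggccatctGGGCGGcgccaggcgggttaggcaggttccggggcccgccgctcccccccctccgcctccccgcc
The SP1 box was found in 7 of the 8 members' 250-base windows, Ash2l being without one, and in 46.1% of the windows of 15194 protein-coding genes that passed the filter. The whole Ash2l window lies inside the annotated gene, whose 5′ end is further upstream. Sequence before the Ash2l gene was therefore not searched for any of the patterns. The Kmt2a and Kmt2d windows held 4 matches each, Ep300 held 3 and Men1 held 1. GC content was 77.6% for Kmt2a, 68.8% for Ep300, 67.2% for Kmt2d and 54.0% for Men1, against a median of 56.0% over all windows. The ETS core CCGGAAG, searched on both strands, was in none of the 8 windows and in 8.84% of all windows. The p53 half-site pattern was in none of the 8 and in 6.56% of all windows. The E2F letters GCGGGAA were in the windows of Kat6a and Ezh2, the latter with 2 matches, and in 5.94% of all windows. These are matches of letters within short windows and say nothing of binding. RefSeq promoters of the older build GRCm38.p6 shared a run of 40 bases with the windows of Kmt2a, Kmt2d, Men1 and Wdr5 among the 8 members. RefSeq promoters listed for Ep300 and Ezh2 did not share such a run.

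**Figure D1:**
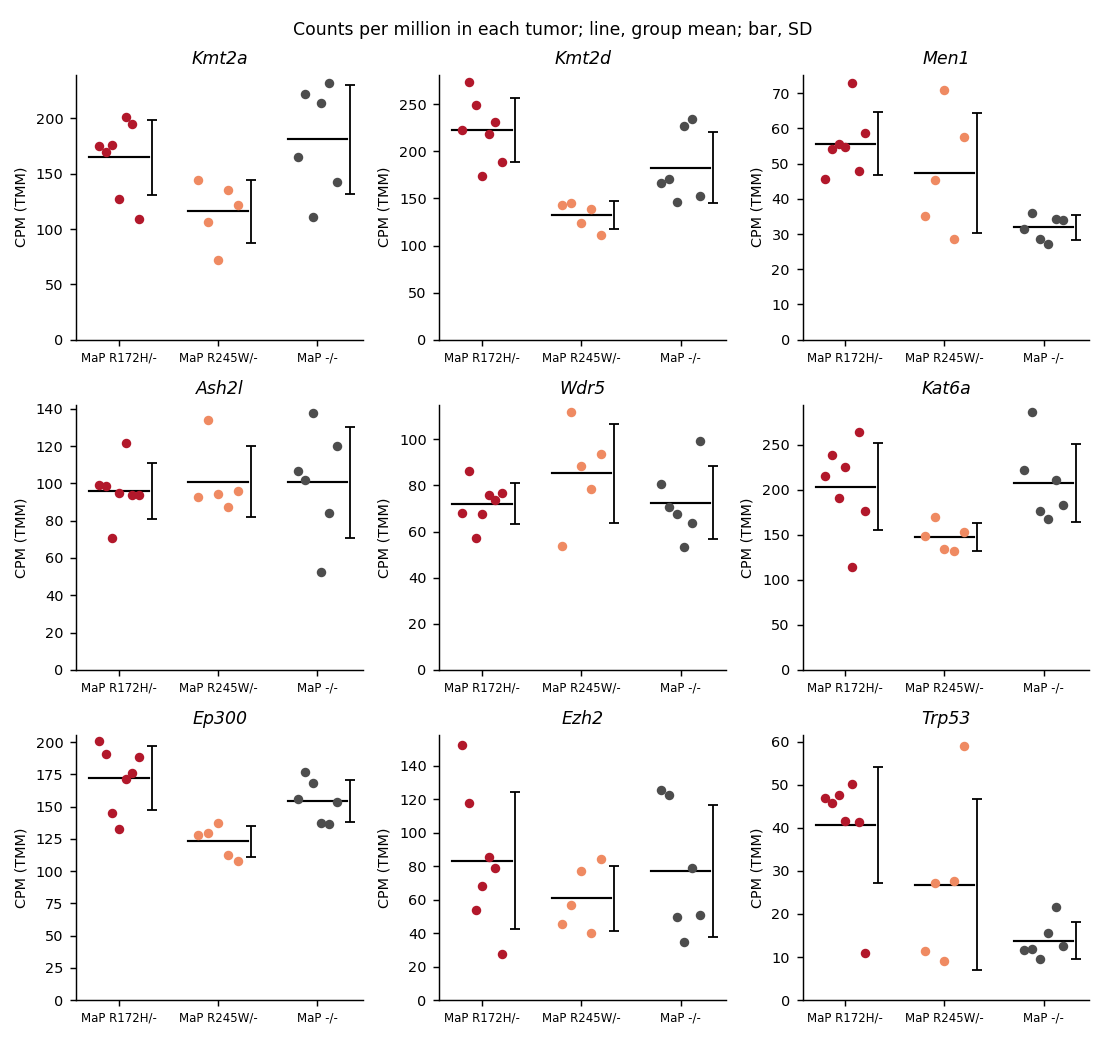
CPM (TMM-scaled, linear axes from 0) of the 8 genes and Trp53 in each of the 18 tumors, by genotype, with the group mean (line) and SD (bar). For Men1 all 7 MaP R172H/- tumors (45.6 to 73.0 CPM) lie above all 6 MaP -/- tumors (27.1 to 35.9 CPM), and for Kmt2d all 7 (174 to 273.5 CPM) lie above all 5 MaP R245W/- tumors (111 to 145 CPM).

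Men1 encodes menin, the scaffold that joins the MLL methyltransferases to chromatin and is lost in multiple endocrine neoplasia (ENSMUSG00000024947, chr19:6385009-6390921, plus strand, 9 exons in the canonical transcript). Its level was 45.6 to 73.0 CPM with a median of 54.7 in MaP R172H/- tumors and 27.1 to 35.9 CPM with a median of 32.7 in MaP -/- tumors. The MaP R245W/- tumors held 35.0, 45.4, 70.8, 28.6 and 57.5 CPM. No MaP R172H/- tumor overlapped with the MaP -/- range, whereas 3 of the 5 MaP R245W/- tumors lay above that range and 2 within it. Men1 was 1.77-fold higher in MaP R172H/- than in MaP -/- tumors (log2 0.82, SE 0.135, 95% interval 0.53 to 1.11, adjusted p = 0.00262). It was the only 1 of the 8 genes called in this comparison, where 8.4% of 20954 genes tested were called (3.67% higher and 4.73% lower), 24.7% had an unadjusted p below 0.05, and the groups did not overlap for 4.62% (2.01% higher and 2.62% lower). The Men1 change stayed between 0.75 and 0.86 when each of the 13 tumors was left out in turn. In MaP R245W/- against MaP -/- tumors the value was 0.57 (SE 0.226, 95% interval 0.08 to 1.06) with an adjusted p of 0.384, the value without MaP R245W/- replicate 3 was 0.38 with an adjusted p of 0.606, and between the mutants it was 0.23 (SE 0.194, 95% interval -0.18 to 0.64, adjusted p = 0.485). The 2 lowest MaP R245W/- values for Men1 belonged to replicates 4 and 1, and the highest to replicate 3, a tumor with 9.09 CPM of Trp53.

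Kmt2d encodes the largest of the MLL methyltransferases, which marks enhancers (ENSMUSG00000048154, chr15:98729550-98769085, minus strand). Its level was 174 to 273.5 CPM with a median of 223 in MaP R172H/- tumors, and 146 to 234 CPM with a median of 169 in MaP -/- tumors. The MaP R245W/- tumors held 143, 145, 124, 139 and 111 CPM. The 5 MaP R245W/- tumors were the 5 lowest of the 18, below every MaP R172H/- and every MaP -/- tumor, and the MaP R172H/- and MaP -/- ranges overlapped. Against MaP -/- tumors MaP R245W/- tumors did not overlap for 1.32% of genes, and were the lower group for 0.848%. Between the mutants Kmt2d was 1.68-fold higher in MaP R172H/- tumors (log2 0.75, SE 0.158, 95% interval 0.42 to 1.08, adjusted p = 0.00586). In this comparison 9.4% of 22481 genes were called (2.91% higher and 6.49% lower), and the groups did not overlap for 5.83% (1.78% higher and 4.05% lower). The call held when any 1 of the 18 tumors was left out, with values of 0.69 to 0.80. Against MaP -/- tumors the value was 0.31 (SE 0.157, adjusted p = 0.25) for MaP R172H/- and -0.47 (SE 0.176, adjusted p = 0.369) for MaP R245W/-, so neither mutant was called.

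Kmt2a encodes the founding MLL protein, which binds menin and is broken by translocations in leukaemia (ENSMUSG00000002028, chr9:44714652-44792621, minus strand). Its level was 109 to 201 CPM with a median of 175 in MaP R172H/- tumors and 111 to 232 CPM with a median of 189.6 in MaP -/- tumors. The MaP R245W/- tumors held 144, 106, 72.4, 135 and 122 CPM. All groups overlapped, with the single lowest value in MaP R245W/- replicate 3. Kmt2a was -0.11 (SE 0.199, 95% interval -0.54 to 0.32) in MaP R172H/- and -0.65 (SE 0.244, 95% interval -1.18 to -0.12) in MaP R245W/- against MaP -/- tumors, with adjusted p of 0.771 and 0.37. Between the mutants it was 0.51 (SE 0.219, adjusted p = 0.154).

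Ash2l and Wdr5 encode core subunits that every MLL and SET1 complex shares, Wdr5 being a subunit that binds the methyltransferase itself. Ash2l (chr8:26302560-26337743) was at 70.7 to 122 CPM, median 94.6, in MaP R172H/- tumors and at 52.5 to 138 CPM, median 104, in MaP -/- tumors. Ash2l was at 92.7, 134, 94.3, 87.2 and 96.1 CPM in MaP R245W/- tumors, where replicate 2 stood above the other 4. The groups overlapped throughout, and the fitted values were -0.05, 0.0022 and -0.07 for MaP R172H/- against MaP -/-, MaP R245W/- against MaP -/- and between the mutants, the widest 95% interval being -0.50 to 0.50, with adjusted p of 0.906, 0.998 and 0.86. Wdr5 (chr2:27405161-27426560) was at 57.4 to 86.2 CPM, median 73.6, in MaP R172H/- tumors and at 53.3 to 99.4 CPM, median 69.1, in MaP -/- tumors. Wdr5 was at 53.8, 112, 88.3, 78.6 and 93.7 CPM in MaP R245W/- tumors. Its ranges also overlapped, with fitted values of 0.01, 0.23 and -0.24 in the same order, none called (adjusted p = 0.98, 0.68 and 0.418 with edgeR).

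Kat6a encodes MOZ, an acetyltransferase of the MYST family (ENSMUSG00000031540, chr8:23349545-23433275, plus strand). It was at 115 to 264 CPM, median 215, in MaP R172H/- tumors and at 168 to 286 CPM, median 197, in MaP -/- tumors. The MaP R245W/- tumors held 149, 169.9, 134, 132 and 153.5 CPM, so that 4 of the 5 lay below all MaP -/- tumors and the fifth just inside their range. In MaP R172H/- tumors all but replicate 5 (tumor YZ7, 115 CPM) lay above every MaP R245W/- tumor. The fitted values were -0.0047 (SE 0.193, adjusted p = 0.992) for MaP R172H/- and -0.50 (SE 0.171, adjusted p = 0.36) for MaP R245W/- against MaP -/- tumors. Between the mutants the value was 0.46 (SE 0.187, adjusted p = 0.126), and without MaP R172H/- replicate 5 it was 0.56 with an adjusted p of 0.0297, the only setting run in which Kat6a was called in this comparison.

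Ep300 encodes p300, the acetyltransferase of enhancers that also acetylates p53 (ENSMUSG00000055024, chr15:81469540-81537206, plus strand). It was at 133 to 201 CPM, median 176, in MaP R172H/- tumors and at 137 to 177 CPM, median 155, in MaP -/- tumors. In MaP R245W/- tumors it was at 128, 129.5, 137, 113 and 108 CPM. Of the MaP R172H/- tumors 6 of 7 lay above all MaP R245W/- tumors, and replicate 4 (133 CPM) lay within their range. Ep300 was 1.4-fold higher in MaP R172H/- than in MaP R245W/- tumors (log2 0.48, SE 0.131, 95% interval 0.21 to 0.76, adjusted p = 0.0271). This call was lost without MaP R172H/- replicate 1 (adjusted p = 0.0565) or 2 (0.0518) and without MaP R245W/- replicate 4 (0.0684) or 5 (0.0703), in a fit of these 2 groups alone (0.0611), with no filter on low counts (0.0823) and without the 3 mutant tumors of low Trp53 (0.0884). The value lay between 0.44 and 0.54 in these fits. Against MaP -/- tumors it was 0.17 (SE 0.130, adjusted p = 0.433) for MaP R172H/- and -0.33 (SE 0.136, adjusted p = 0.384) for MaP R245W/-.

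Ezh2 encodes the catalytic subunit of Polycomb repressive complex 2 and had the widest ratio of highest to lowest level of the 8 (ENSMUSG00000029687, chr6:47507073-47572331, minus strand). It was at 27.7 to 152 CPM, median 79.1, in MaP R172H/- tumors and at 34.6 to 126 CPM, median 65.1, in MaP -/- tumors. Among MaP R245W/- tumors the values were 45.5, 57.1, 77.2, 40.04 and 84.5 CPM. The highest of the 18 tumors had 5.5-fold the level of the lowest, both of them in the MaP R172H/- group, compared with 1.87-fold for Ep300, the narrowest ratio. The 2 tumors of mouse JM663 held 123 and 49.85 CPM. The fitted values were 0.14 (SE 0.382), -0.35 (SE 0.357) and 0.45 (SE 0.385) for the 3 comparisons, with adjusted p of 0.861, 0.717 and 0.487. Leaving out 1 tumor gave -0.10 (without MaP R172H/- replicate 1) to 0.33 (without MaP -/- replicate 1) for the first, -0.50 (without MaP -/- replicate 4) to -0.16 (without MaP -/- replicate 1) for the second and 0.24 (without MaP R172H/- replicate 1) to 0.61 (without replicate 7) for the third, none called.

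**Figure D2:**
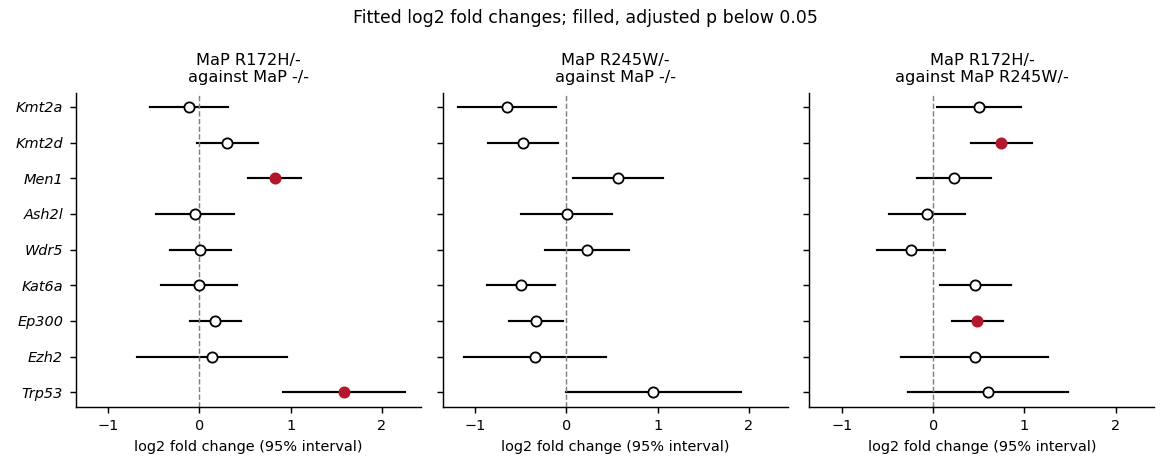
Fitted log2 fold change (point) and its 95% interval (line) for the 8 genes and Trp53 in the 3 comparisons, with points filled in red where the adjusted p was below 0.05. Of the 8 genes, Men1 is filled in MaP R172H/- against MaP -/- tumors, none in MaP R245W/- against MaP -/- tumors, and Kmt2d and Ep300 between the mutants.

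Both comparisons with MaP -/- tumors share those 6 control tumors. In MaP R172H/- tumors 5 of the 8 values were above 0, with a median of 0.07 against 0.0027 for all genes tested. In MaP R245W/- tumors 3 of the 8 were above 0, with a median of -0.34 against 0.02 for all genes. No gene at all was called in MaP R245W/- against MaP -/- tumors by edgeR (0% of 21452 tested), and DESeq2's Wald test called 427 genes and none of the 8. At an unadjusted p below 0.05 the count was 5 of the 8, compared with 11.8% of all genes tested (6.46% lower). These were Kat6a, Kmt2d, Kmt2a and Ep300, which had lower values in MaP R245W/- tumors, and Men1, which had a higher value. None of them was past the adjusted threshold.

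Those 4 genes have the longest transcripts of the 8, between 9133 bases (Kat6a) and 19826 bases (Kmt2d) in the canonical transcript, against 2909 bases (Wdr5) to 6774 bases (Ash2l) for the others. Over all protein-coding genes tested, fold changes also moved with transcript length. In MaP R245W/- against MaP -/- tumors the median log2 fold change fell from 0.24 for 3197 genes with transcripts below 2 kb to -0.09 for 664 genes of 9 kb and above, and 6.02% of the latter were lower at an unadjusted p below 0.05, compared with 2.78% of the former. Between the mutants the median rose from -0.15 below 2 kb to 0.07 at 9 kb and above. In MaP R172H/- against MaP -/- tumors it was 0.07 and -0.0026. The values of Kmt2a, Kmt2d, Kat6a and Ep300 in MaP R245W/- tumors, -0.65 to -0.33, lay below the median of their length class. The part of transcript length in them was not tested.

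**Figure D3:**
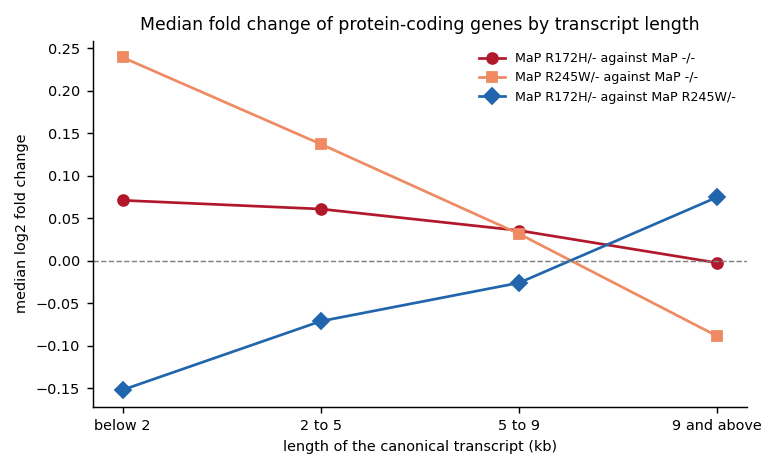
Median log2 fold change of the protein-coding genes tested, in 4 classes of canonical transcript length (kb), for the 3 comparisons. For MaP R245W/- against MaP -/- tumors the median runs from 0.24 below 2 kb to -0.09 at 9 kb and above, the class of Kmt2a, Kmt2d, Kat6a and Ep300.

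The other genes of the same complexes were read from lists written by hand. Beside the list counts below, edgeR called 3.67% of all genes tested higher and 4.73% lower in MaP R172H/- against MaP -/- tumors. It called 0% in MaP R245W/- against MaP -/- tumors, and 2.91% higher and 6.49% lower in MaP R172H/- against MaP R245W/- tumors. An unadjusted p below 0.05 was found by edgeR for 24.7%, 11.8% and 25.9% of genes in the same order. Of the 6 H3K4 methyltransferase genes (Kmt2a, Kmt2b, Kmt2c, Kmt2d, Setd1a, Setd1b), all 6 were above 0 in MaP R172H/- against MaP R245W/- tumors, with a median of 0.63, and 4 were called higher. Setd1b rose most (log2 1.09, SE 0.233, adjusted p = 0.00641, 24.5 against 11.5 CPM), followed by Kmt2d, Kmt2b (log2 0.66, SE 0.178, adjusted p = 0.0273) and Setd1a (log2 0.61, SE 0.17, adjusted p = 0.0302). Of these, Setd1a and Setd1b did not overlap between the mutant groups, like Kmt2d, while Kmt2b did. All 6 were below 0 in MaP R245W/- against MaP -/- tumors (median -0.48) and none was called by edgeR, with 3 at an unadjusted p below 0.05 and 0 called by DESeq2. This comparison and that of the mutants share the same MaP R245W/- tumors and are not independent. The part of transcript length in the values of this list was not tested. In MaP R172H/- against MaP -/- tumors 4 of the 6 were above 0 (median 0.35), none called, 2 at an unadjusted p below 0.05 and 1 (Setd1a) called by DESeq2.

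Of 14 COMPASS core and partner subunits 13 were tested. In MaP R172H/- against MaP -/- tumors 3 were called higher and none lower, namely Cxxc1, the CpG-binding subunit of the SET1 complexes (log2 0.96, SE 0.194, adjusted p = 0.0088, 75.8 against 39.3 CPM, groups not overlapping), Men1, and Ncoa6, a coactivator subunit of the Kmt2c and Kmt2d complexes (log2 0.43, SE 0.123, adjusted p = 0.0472). Between the mutants Ncoa6 (log2 0.85, SE 0.141, adjusted p = 0.00098, groups not overlapping) and Hcfc1 (log2 0.44, SE 0.136, adjusted p = 0.0497) were called higher in MaP R172H/- tumors. The shared core subunits Wdr5, Rbbp5, Ash2l and Dpy30 were called in no comparison by edgeR or DESeq2.

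Among 11 genes of the MYST acetyltransferases and the MOZ complex, 1 was called by edgeR in any comparison, Kat6b, the paralog of Kat6a, which was higher in MaP R172H/- than in MaP R245W/- tumors (log2 0.64, SE 0.182, adjusted p = 0.0342). Crebbp, the paralog of Ep300, was called higher in the same comparison (log2 0.57, SE 0.172, adjusted p = 0.0433, 206 against 139 CPM), so that both members of the p300/CBP pair and 2 of the 7 genes of their list were called. Of 11 Polycomb repressive complex 2 genes tested, Phf1, an accessory subunit that reads methylated histone tails, was the only 1 called by edgeR, and it was higher in MaP R172H/- than in MaP -/- tumors (log2 0.76, SE 0.183, adjusted p = 0.0221) and than in MaP R245W/- tumors (log2 0.90, SE 0.242, adjusted p = 0.0258). Of the Polycomb repressive complex 1 genes, Pcgf2 (log2 1.01, SE 0.219), Cbx8 (log2 0.81, SE 0.203) and Phc1 (log2 0.59, SE 0.17) were called higher in MaP R172H/- than in MaP -/- tumors, and none was called lower. Between the mutants Cbx7 (log2 1.06, SE 0.285), Pcgf2 (log2 1.03, SE 0.226) and Phc1 (log2 0.66, SE 0.199) were called higher in MaP R172H/- tumors. Of 10 histone demethylases and deacetylases, Kdm6b, which removes the Polycomb mark, was called higher between the mutants (log2 1.16, SE 0.287, adjusted p = 0.0171) and none was called against MaP -/- tumors, where 2 in MaP R172H/- and 1 in MaP R245W/- tumors had an unadjusted p below 0.05 and DESeq2 called 0 and 0. Every gene of these 7 lists that edgeR called was higher in MaP R172H/- tumors. DESeq2 also called genes lower there, Jarid2 against MaP -/- tumors and Suz12 and Pcgf6 against MaP R245W/- tumors.

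**Figure D4:**
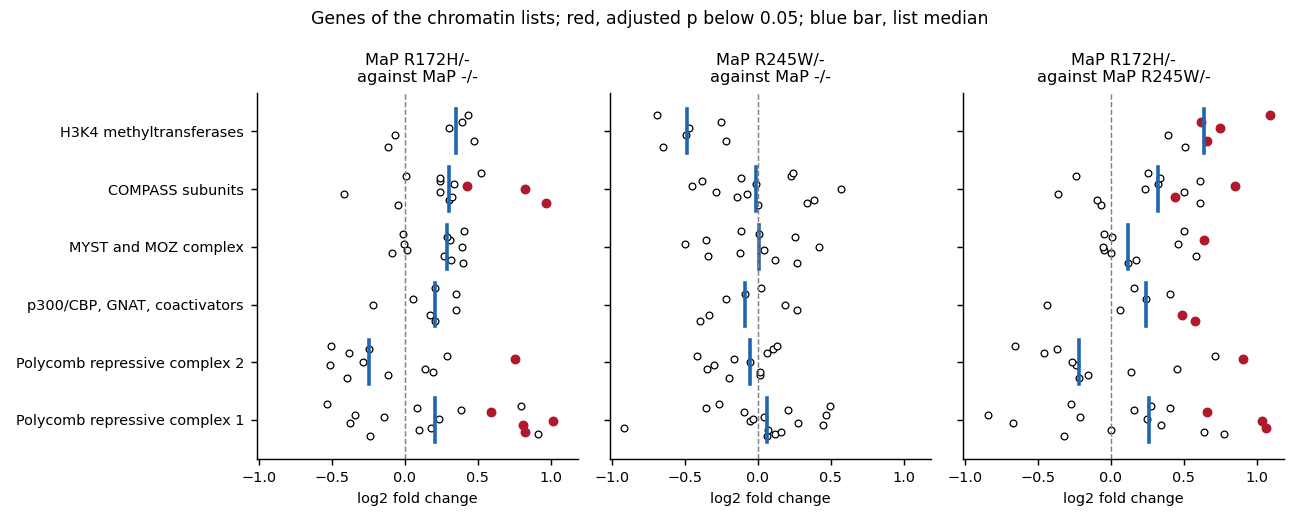
Log2 fold change of each tested gene in 6 lists of chromatin regulators for the 3 comparisons (1 point per gene, red where the adjusted p was below 0.05, blue bar at the list median). The 6 H3K4 methyltransferases lie below 0 in MaP R245W/- against MaP -/- tumors (median -0.48) and above 0 between the mutants (median 0.63).

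Lists of genes that these regulators are known to act on or with were read in the same way. None of 10 menin and MLL target genes, among them Hoxa9, Meis1 and Cdkn1b, was called in any comparison with edgeR, none had an unadjusted p below 0.05, and DESeq2 called 0, 0 and 0 in the 3 comparisons. Their median log2 fold change was -0.66, -0.24 and -0.37. Group means of Hoxa7, Hoxa9, Hoxa10 and Hoxc8 were only 0.675 to 2.75 CPM, so changes in these genes were poorly measured. None of 12 ETS factor genes was called either, with 1, 2 and 1 at an unadjusted p below 0.05 and 0, 0 and 1 (Elk4) called by DESeq2. Of 18 p53 target genes, Bbc3 was called higher (log2 1.16, SE 0.235) and Eda2r (log2 -2.29, SE 0.52), Fas (log2 -1.31, SE 0.326) and Btg2 (log2 -1.05, SE 0.275) lower when MaP R172H/- was set against MaP -/-. Between the mutants Bbc3 was called higher, and Eda2r and Btg2 lower, in MaP R172H/- tumors. Of 26 proliferation genes, E2f2 was called higher (log2 0.61, SE 0.174) and Pcna lower (log2 -0.86, SE 0.246) against MaP -/- tumors, and Ccnb1 (log2 -1.17, SE 0.289) and Pcna (log2 -1.09, SE 0.241) lower against MaP R245W/- tumors. In MaP R245W/- against MaP -/- tumors no gene of these 2 lists was called, with 1 p53 target gene and 0 proliferation genes at an unadjusted p below 0.05, and DESeq2 called 0 and 0.

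Whether the 8 genes followed the level of Trp53 was asked over 16 mice, with the 2 tumors of each of 2 MaP -/- mice averaged, on log2 CPM. None of the 8 correlations passed (permutation test, two-sided, 100000 resamples, adjusted over 8 genes). Pearson's r was 0.404 for Men1, 0.395 for Kmt2d, 0.384 for Kmt2a and 0.362 for Ezh2, each with an adjusted permutation p of 0.336. It was 0.0933 for Kat6a, 0.00437 for Wdr5, -0.00791 for Ep300 and -0.114 for Ash2l, with adjusted permutation p of 0.973 to 0.986. Spearman's rho was 0.318 for Men1 (permutation p = 0.23), 0.347 for Kmt2d (0.188), 0.388 for Kmt2a (0.138), 0.415 for Ezh2 (0.113), 0.0559 for Kat6a (0.841), -0.0618 for Wdr5 (0.824), -0.0265 for Ep300 (0.926) and 0.0647 for Ash2l (0.813), with adjusted permutation p of 0.46 to 0.926. Without the 2 mice farthest from the median Trp53 level, r was 0.602 for Men1 (permutation p = 0.0254, adjusted 0.203), 0.492 for Ezh2, 0.27 for Kmt2d and 0.224 for Kmt2a. Leaving out 1 mouse gave r of 0.302 (without MaP R245W/- replicate 3) to 0.671 (without MaP R245W/- replicate 5, adjusted permutation p = 0.0687) for Kmt2d, and 0.197 (without MaP R245W/- replicate 3) to 0.479 for Kmt2a. For Men1 it gave 0.328 to 0.644, and for Ezh2 0.245 to 0.521.

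Values within groups and instruments were as follows, with no test of their difference. After each group mean was subtracted, r of Men1 was -0.0971, that of Kmt2a 0.599 (permutation p = 0.0338, adjusted 0.27) and that of Ep300 -0.482 (permutation p = 0.077, adjusted 0.301). Among the 7 HiSeq mice, which are all MaP R172H/-, Kmt2a had r = 0.795 (exact permutation p = 0.0278, adjusted 0.202) and Ezh2 r = 0.793 (exact permutation p = 0.0504, adjusted 0.202). In that group 6 tumors lay within 41.4 to 50.3 CPM of Trp53, and replicate 7 had the lowest Trp53, the lowest Kmt2a (109 CPM) and the lowest Ezh2 (27.7 CPM) of the 7. By ranks, rho was 0.643 for Kmt2a (exact permutation p = 0.139) and 0.429 for Ezh2 (exact permutation p = 0.354). Among the 9 NovaSeq mice Kmt2a had r = -0.000938 and Ezh2 r = -0.121, and Ep300 had r = -0.784 (exact permutation p = 0.0114, adjusted 0.091, rho = -0.7). These are 5 MaP R245W/- and 4 MaP -/- mice, so their values mix differences between and within groups. Mean Trp53 was 26.84 CPM in MaP R245W/- and 13.77 CPM in MaP -/- tumors, and mean Ep300 was 123.0 and 154.6 CPM. Men1 in the NovaSeq mice had r = 0.176.

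**Figure D5:**
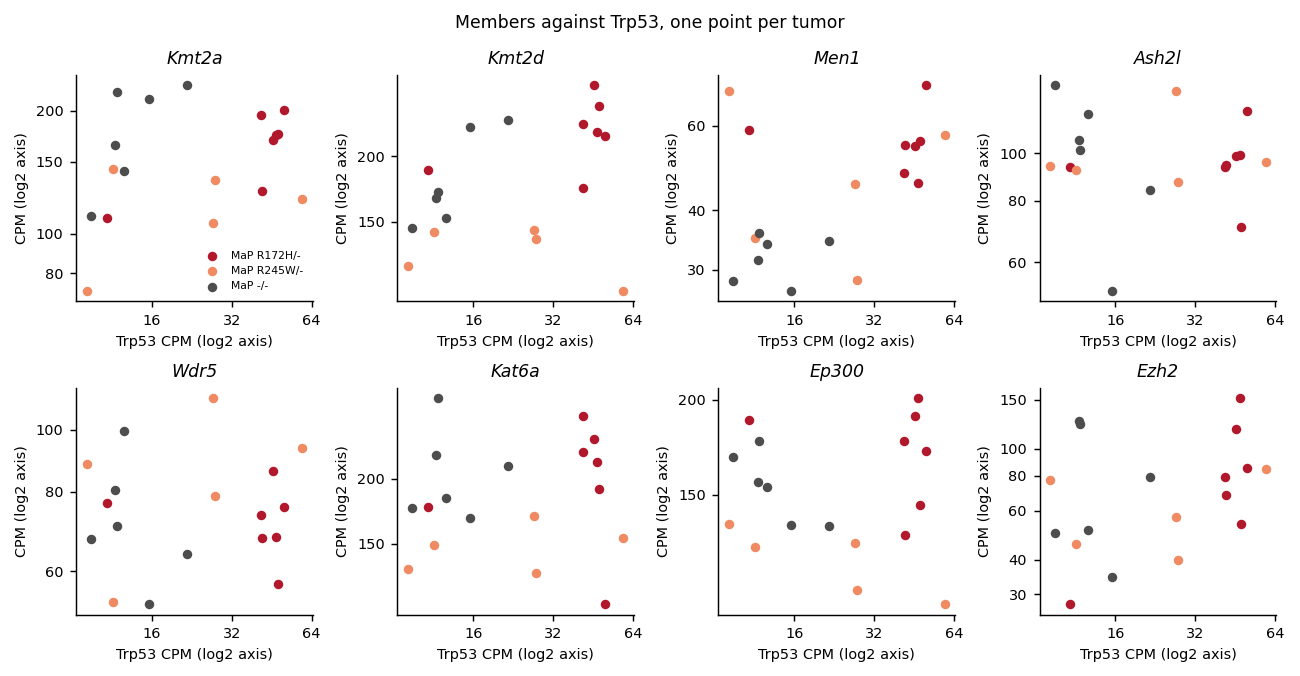
Level of each gene against the level of Trp53 in the 18 tumors (CPM, log2-scaled axes), 1 point per tumor, colored by genotype. The points of each panel scatter widely, and over 16 mice r lies between -0.114 (Ash2l) and 0.404 (Men1).

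The 8 genes were also compared with each other. Over 28 pairs in 16 mice, r ranged from -0.503 (Kmt2a and Wdr5) to 0.716 (Kmt2a and Kmt2d), with a median of 0.187. Kmt2a and Kmt2d were the only pair that passed (permutation p = 0.00152, adjusted 0.0426; rho = 0.747, permutation p = 0.00138, adjusted 0.0386). For this pair r was 0.661 without the 2 mice farthest from the median of Kmt2a, 0.687 in the HiSeq mice and 0.783 in the NovaSeq mice, but 0.623 with an adjusted permutation p of 0.222 after group means were subtracted, when no pair passed. Kmt2d and Ep300 (r = 0.69) and Ash2l and Wdr5 (r = 0.656) both had an adjusted permutation p of 0.0505. Ezh2, which is often read as a gene of dividing cells, had r = -0.056 with the mean level of the 26 proliferation genes (permutation p = 0.837; rho = 0.103, permutation p = 0.704). This r was -0.0252 in HiSeq mice, -0.0529 in NovaSeq mice and -0.0898 without the 2 mice farthest from the median.

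Levels between the genes can be compared only per length of transcript. As CPM per kb of the canonical transcript, the mean over 18 tumors ran from Wdr5 (26.1 ± 5.4, SD) over Ezh2 (24.3 ± 11.3), Kat6a (20.7 ± 5.09), Men1 (15.3 ± 4.86), Ash2l (14.6 ± 3.05), Ep300 (14.5 ± 2.59) and Kmt2a (9.5 ± 2.73) to Kmt2d (9.29 ± 2.4). Of the 7 neighbouring pairs in this order, only Ep300 and Kmt2a differed by more than the SD of their difference between tumors, Ep300 being higher in 16 of 18 tumors. The order depends on the length used. Per kb of all annotated exons joined, Kat6a (20.01) stood first, Wdr5 (9.95) fell to the fifth place and Ash2l (7.51) to the last.

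The genes that ran most like each member over the 18 tumors, with group means subtracted, were searched among the other 22480 genes that passed the filter, and are given with Pearson's r and no test. For Kmt2a they were the lncRNA 4933424L21Rik (0.915), the methyltransferase gene Setd1b (0.884) and the ubiquitin ligase gene Cbl (0.839). For Kmt2d they were Gm13477 (0.84), Gm16146 (0.823) and Ntrk3 (0.818). Men1 ran with the acetyltransferase gene Kat2a (0.918) and Ints5 (0.883), and Ash2l with Ythdf2 (0.891), Coa6 (0.884) and Rars1 (0.884). Wdr5 ran with Ssb (0.924), Ythdf1 (0.915) and Yme1l1 (0.914), and all 3 of these lie on chromosome 2, as Wdr5 does. They lie 42265338, 153119604 and 4315879 bases from it. Kat6a ran with Gm22595 (0.877), Mrpl23 (0.865) and Gm45854 (0.855), and Ep300 with Gm13831 (0.8), Gm16054 (0.793) and Usp53 (0.747). Ezh2 ran with Cul1 (0.918), Pttg1 (0.832) and Snd1 (0.82). Some genes named for other members also lie on the chromosome of their member. These are Cbl (569089 bases from Kmt2a), Ints5 (2479441 from Men1), Coa6 (100811441 from Ash2l) and Gm45854 (72761998 from Kat6a).

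Cul1 and Snd1 lie on chromosome 6 with Ezh2, and the annotated span of Cul1 (chr6:47430293-47510320, plus strand) overlaps with the end of Ezh2 on the other strand. The libraries were stranded, but whether strand was used in counting is not given in the sources used here, so reads from the overlap cannot be assigned to either gene. Of 29 tested genes within 1 Mb of Ezh2, 13 had an r above 0.5 with it, compared with 3.99% of all genes, and the median r was 0.473 against 0.014 for all genes. Neighbours within 1 Mb also ran with Kat6a (median r 0.351 over 27 genes, 11 above 0.5), Men1 (0.317 over 108 genes, 38 above 0.5) and Kmt2a (0.292 over 73 genes, 18 above 0.5). Of all genes, 8.41% had an r above 0.5 with Kat6a, 7.32% with Men1 and 5.27% with Kmt2a. The median r was -0.11 for Kmt2d (68 genes, none above 0.5), -0.0395 for Ash2l (41 genes) and 0.0594 for Wdr5 (38 genes). Of the 38 neighbours of Wdr5, 9 had an r above 0.5, compared with 8.23% of all genes, and of the 41 of Ash2l 3 did, compared with 7.42%. For Ep300 the median was 0.145 over 56 genes, 2 of them above 0.5, compared with 2.37% of all genes. Some of these neighbours overlap with their member. On the same strand these are Gm45555 with Kat6a (r = 0.829), Gm48314 with Kmt2a (0.703) and Gm22067 with Ep300 (0.557). On the other strand, besides Cul1, they are Ap3m2 with Kat6a (0.585), Gm39326 with Kmt2a (0.548), Star with Ash2l (0.291) and Gm44282 with Ezh2 (0.644). Neighbouring genes share a chromosome region in each tumor and are not independent.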

How the data were processed

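Total RNA of 18 mouse mammary tumors was sequenced in bulk, on a HiSeq instrument for MaP R172H/- and on a NovaSeq instrument for MaP R245W/- and MaP -/- tumors. The authors deposited 1 table of expected counts per gene, estimated by RSEM and given as whole numbers. The submitters' processing notes name FastQC 0.11.9, STAR 2.7.10b, RSEM 1.3.3 and GRCm39. Whether strand was used in counting is not given in the sources used here. Of 57126 genes, 56620 matched GENCODE M39 by identifier. Each tumor was assigned to its group from the labels, and 0 columns were left unassigned.

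Genes were filtered with filterByExpr and tested with edgeR 4.0.16 (quasi-likelihood, TMM, R 4.3.3, limma 3.58.1), with Benjamini-Hochberg adjustment over all genes tested. The comparisons with MaP -/- tumors used the tumors of both groups, and the comparison of the mutants used all 18. Tumors were treated as separate samples, although 2 MaP -/- mice gave 2 tumors each. CPM were scaled by TMM over 18 tumors, and log2 CPM used a prior count of 2. Correlations were taken over 16 mice with 100000 permutations, or exact permutation below 10 mice (Python 3.11.15, numpy 2.4.6, scipy 1.17.1, pandas 2.3.3). Figures were drawn with matplotlib 3.10.9. Alternatives were DESeq2 1.42.0 and its size factors, no filter, protein-coding genes only, summed tumors of a mouse, other samples in the fit, a log2 fold change of at least 1 and leaving out each tumor. On simulated counts with a log2 change of 1.5, the test found 37 of 98 changed genes for MaP R172H/- against MaP -/-, 4 of 98 for MaP R245W/- against MaP -/- and 31 of 98 between the mutants. At a log2 change of 0.75 it found 0 of 96, 0 of 99 and 2 of 96. Few genes were changed among the 20954, 21452 and 22481 simulated, which makes the adjusted threshold stricter than where many genes change. In the data 8.4%, 0% and 9.4% of genes were called, so these rates may not apply there.

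The 8 genes and the lists were chosen with earlier results of these data known. Named besides them were Trp53, up to 3 called genes of each list per direction and comparison with the largest change, and the 3 genes most correlated with each member. Setd1a, Phc1, Rbbp5, Dpy30, the genes other than Cul1 that overlap with a member and the genes called by DESeq2 alone were named after their values were seen. Some genes that this rule selects are not reported here.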

Additional observations from a re-analysis of the deposited data

Results flagged for a closer look

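In 27 sets of values (8 genes and Trp53 in 3 groups), 2 held a tumor far from the others of its group by Dixon's test, where chance gives about 1 in 20. Ash2l stood at 134.1 CPM in MaP R245W/- replicate 2 (tumor JM1564), with the nearest other tumor at 96.1 CPM. Trp53 stood at 10.83 CPM in MaP R172H/- replicate 7 (tumor YZ11), with the nearest other tumor at 41.36 CPM. Kmt2d (log2 0.7472) and Ep300 (log2 0.4849) differed between the MaP R172H/- and MaP R245W/- groups in the direct test by edgeR, and genotype, instrument and tumor subtype cannot be told apart there.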

How the results depend on the processing

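No paired analysis was possible because the labels give no replicate numbers shared between groups. Genes called in MaP R172H/- against MaP -/- tumors numbered 1760 (768 higher), and 1051 with a log2 fold change of at least 1, 3425 by DESeq2, 1126 (380 higher) with the tumors of a mouse summed, 1059 with protein-coding genes only, and 1067 to 1866 when 1 tumor was left out. In MaP R245W/- against MaP -/- tumors the count was 0, but 427 by DESeq2, 2 with all 18 tumors in 1 fit and 0 to 3 when 1 tumor was left out. Between the mutants it was 2114 (654 higher), and 1392 with a log2 fold change of at least 1, 3690 (1502 higher) by DESeq2, 875 with protein-coding genes only, 1086 (225 higher) without the 3 mutant tumors of low Trp53, an alternative chosen after seeing the data, and 1525 to 2362 when 1 tumor was left out. None of the 8 genes reached a log2 fold change of 1 with a call, which gave 0 in each comparison. Of the 2 called between the mutants, 1 (Kmt2d) was left with no filter, with 2 groups in the fit and without the tumors of low Trp53, and 1 to 3 genes were called when 1 tumor was left out. Men1 was called in MaP R172H/- against MaP -/- tumors under 7 alternative fits (0.78 to 0.84). Protein-coding genes only moved the 8 values by a median of -0.10 in MaP R245W/- against MaP -/- tumors.

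Values near 0 changed sign, and the cause was not tested. For Kat6a in MaP R172H/- against MaP -/- tumors they were 0.0038 by DESeq2, 0.0040 with no filter, 0.0197 with tumors summed, 0.0069 without the tumors of low Trp53 and -0.0765 to 0.1038 when 1 tumor was left out. For Wdr5 they were -0.0643 with tumors summed, -0.0243 with protein-coding genes, -0.0073 in 1 fit, -0.0260 without the tumors of low Trp53 and -0.0686 to 0.134 when 1 was left out. For Ash2l in MaP R245W/- against MaP -/- tumors they were -0.0279 with tumors summed, -0.0930 with protein-coding genes and -0.1321 to 0.1109 when 1 was left out. Leaving out 1 tumor gave -0.1827 to 0.0621 for Ash2l and -0.0966 to 0.3285 for Ezh2 in MaP R172H/- against MaP -/- tumors, and -0.136 to 0.0555 for Ash2l between the mutants. The correlation with Trp53 was -0.0971 for Men1 with group means subtracted, -0.0137 for Wdr5 with protein-coding genes, and 0.00523 (DESeq2 size factors) and 0.00985 (protein-coding genes) for Ep300. Without mouse JM663 (MaP -/- replicates 2 and 3) it was -0.0376 for Wdr5 and 0.0591 for Ep300, and without mouse JM833 (replicates 4 and 5) it was -0.0344 for Wdr5. Leaving out 1 mouse gave -0.0390 to 0.291 for Kat6a, -0.225 to 0.0114 for Ash2l, -0.149 to 0.114 for Wdr5, -0.132 to 0.187 for Ep300 and 0.328 to 0.644 for Men1.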
